A study of Mus musculus with 3 samples.

Results

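Hyaluronan synthesis and turnover was followed in mouse flexor digitorum longus (FDL) tendon through 10 genes, the synthases *Has1* (ENSMUSG00000003665), *Has2* (ENSMUSG00000022367) and *Has3* (ENSMUSG00000031910), the precursor enzymes *Ugdh* (ENSMUSG00000029201) and *Uap1* (ENSMUSG00000026670), the crosslinker *Tnfaip6* (ENSMUSG00000053475), the receptor *Cd44* (ENSMUSG00000005087) and the breakdown genes *Cemip* (ENSMUSG00000052353), *Hyal1* (ENSMUSG00000010051) and *Hyal2* (ENSMUSG00000010047), which were taken by symbol from the 32285 genes of the feature lists. Another 38 genes of the same pathway (precursor enzymes, hyaluronidases, link proteins, hyaluronan-binding proteoglycans and receptors) were read beside them as a list. Single-cell RNA sequencing had been run on 3 pools of tendons, 1 library each, to compare depletion of Scleraxis-lineage cells with natural ageing. Each pool held 16 FDL tendons of male and female mice. The 6 M WT library came from Scx-Cre-; Rosa-DTR F/+ littermates and the 6 M DTR library from Scx-Cre+; Rosa-DTR F/+ mice, in which the Scleraxis promoter drives Cre and the recombined cells carry the diphtheria toxin receptor, so that this library holds the cells left after depletion. Mice of both groups received 5 daily hind paw injections of diphtheria toxin at 3 months of age and, by the study's methods, were harvested at 6 months. The labels give these libraries an age of 3 months. The 21 M B6 library came from untreated C57/Bl6 mice aged 21 months, which carried neither allele and received no toxin. The WT tendons were digested in collagenase for 120 min, and the DTR and B6 tendons for 90 min. Digestion time therefore cannot be told apart from the group in a comparison with WT, and strain and toxin cannot be told apart from age in a comparison with B6.

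Hyaluronan is a long unsulphated glycosaminoglycan that is made at the plasma membrane and extruded into the pericellular space, without a protein core. The synthases HAS1, HAS2 and HAS3 join UDP-glucuronic acid, which UGDH makes from UDP-glucose, to UDP-N-acetylglucosamine, whose last step of synthesis is carried out by UAP1. TSG-6, the product of *Tnfaip6*, transfers heavy chains of inter-alpha-inhibitor onto hyaluronan and so crosslinks it. CD44 is the main cell surface receptor. CEMIP, HYAL2 and HYAL1 take part in its depolymerization, the first outside or at the surface of the cell and the last in the lysosome. In tendon, hyaluronan is known as a lubricant of the gliding surface, where the epitenon, a thin cell layer, covers the collagen fascicles that hold the tenocytes.

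The libraries held between 12273 and 16099 barcodes and between 92707026 and 148149903 UMIs (unique molecular identifiers, the counted molecules), of which 8357 WT, 6554 DTR and 4798 B6 cells passed the study's filters. Between 61 and 76 barcodes were shared by a pair of libraries, at most 0.530% of a library. The share of barcodes over the mitochondrial limit was 27.6% in WT, 43.1% in DTR and 56.5% in B6. Clusters were named from marker lists, and 1643 WT, 1757 DTR and 2723 B6 cells were epitenon-like, led by *Efemp1*, *Scg3* and *Pi16*, with 7 of 8 epitenon markers raised. These were 19.7%, 26.8% and 56.8% of the cells of each library. Tenocyte-like cells, led by *Coch*, *Chad* and *Tnmd*, numbered 5411, 2682 and 1041, and macrophage-like cells, led by *C1qa* and *C1qc*, 669, 1172 and 529. T cell-like, endothelial-like, mural-like, nerve-like and muscle progenitor-like cells made up most of the rest, and lymphatic endothelial-like cells (11, 15 and 4) and an unnamed cluster with endothelial and mural markers (23, 25 and 26) were too few to be ranked. The summed level of 8 tenocyte markers was 2704, 3879 and 1360 CPM (counts per 1000000 UMIs of the class) in epitenon-like cells of WT, DTR and B6, against 16575, 19852 and 16414 CPM in tenocyte-like cells, so that the border between these classes was not sharp and DTR epitenon-like cells held the most tenocyte RNA. Median depth was close between libraries, at 14596, 14441 and 14192 UMIs per epitenon-like cell and 12892, 12444 and 11016 per tenocyte-like cell. The mean mitochondrial share of WT, DTR and B6 cells was 3.03%, 3.11% and 4.80% in the epitenon-like, 3.04%, 3.20% and 5.81% in the tenocyte-like and 3.13%, 3.40% and 5.77% in the macrophage-like class. It was thus highest in B6 in each of these classes, and with a mitochondrial limit of 5% per cell the *Has1* ratio of B6 over WT was 3.33 in epitenon-like and 3.30 in tenocyte-like cells.

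A level is given as CPM, the UMIs of a gene per 1000000 UMIs of all cells of a class in a library, with an exact 95% Poisson interval. Values in series are in the order WT, DTR and B6. With 1 library per group there was no replicate and no test was possible: intervals cover counting error only, not the spread between mice or preparations. A gene was called past the fold where its mean over the 3 libraries was at least 10 CPM and its ratio was at least 2-fold in either direction, and the share of all genes called in the same comparison is given as the background. Shares of cells were taken after each cell had been thinned to 2000 UMIs. Levels were not compared between genes.

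*Has1* had its highest level in the epitenon-like cells. Its level there was 834 CPM in WT (823 to 846), 558 CPM in DTR (549 to 567) and 2618 CPM in B6 (2602 to 2634), and in tenocyte-like cells it was 278, 271 and 799 CPM. All 3 libraries had more in the epitenon-like than in the tenocyte-like class, by 3.00, 2.06 and 3.28 times. Macrophage-like cells held 16.6, 14.8 and 97.9 CPM, T cell-like cells 24.7, 41.5 and 67.8 CPM and mural-like cells 34.5, 38.6 and 214 CPM, and the other ranked classes lay between 12.9 and 160 CPM. Of epitenon-like cells, 53.8%, 42.8% and 79.8% held a *Has1* UMI after thinning (81.6%, 73.1% and 93.4% before), against 26.4%, 26.3% and 46.2% of tenocyte-like cells (56.4%, 53.8% and 74.9% before). In macrophages, which served as the class that should lack the synthase, the share was 2.69%, 2.99% and 10.4% (16.3%, 14.2% and 42.3% before), at median depths of 15627, 13328.5 and 13849 UMIs. Both tendon classes stood well above this background in every library. The WT and DTR levels of the tenocyte-like class did not separate beyond a few percent, with a ratio of 0.973 (0.949 to 0.997).

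*Has2*, the synthase needed for heart development in the embryo, was more restricted. It reached 188 (183 to 194), 121 (117 to 126) and 284 (279 to 289) CPM in epitenon-like cells and 13.3 (12.5 to 14.2), 7.07 (6.22 to 8.01) and 24.5 (21.8 to 27.4) CPM in tenocyte-like cells. The epitenon-like level was 14.2, 17.2 and 11.6 times the tenocyte-like one, the widest gap among the synthases. A UMI of *Has2* was found in 21.4%, 12.5% and 28.4% of thinned epitenon-like cells (46.0%, 33.4% and 54.7% before thinning) and in 0.149%, 0.342% and 0.945% of macrophage-like cells (1.35%, 1.19% and 2.65% before). Among the other named classes, mural-like cells, the pericytes and smooth muscle of vessels, held 48.4, 67.4 and 54.0 CPM, and nerve-like cells 21.8, 47.9 and 55.4 CPM. The value of 49.8 CPM in T cell-like cells of B6 came from 47 UMIs that all lay in 1 cell. *Has2os*, on the strand opposite to *Has2*, was at 15.7, 12.6 and 20.2 CPM in epitenon-like cells and 2.52, 2.46 and 2.34 CPM in tenocyte-like cells. Whether the counting used strand is not given in the sources used here, so whether its reads were kept apart from those of *Has2* is not settled here. *Has3* was scarcely detected at this depth: it stayed under 1 CPM in the tenocyte-like, epitenon-like and macrophage-like cells of every library, with 38, 14 and 10 UMIs in all tenocyte-like cells, and was at 4.06, 1.23 and 4.87 CPM in endothelial-like cells.

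**Figure D1:**
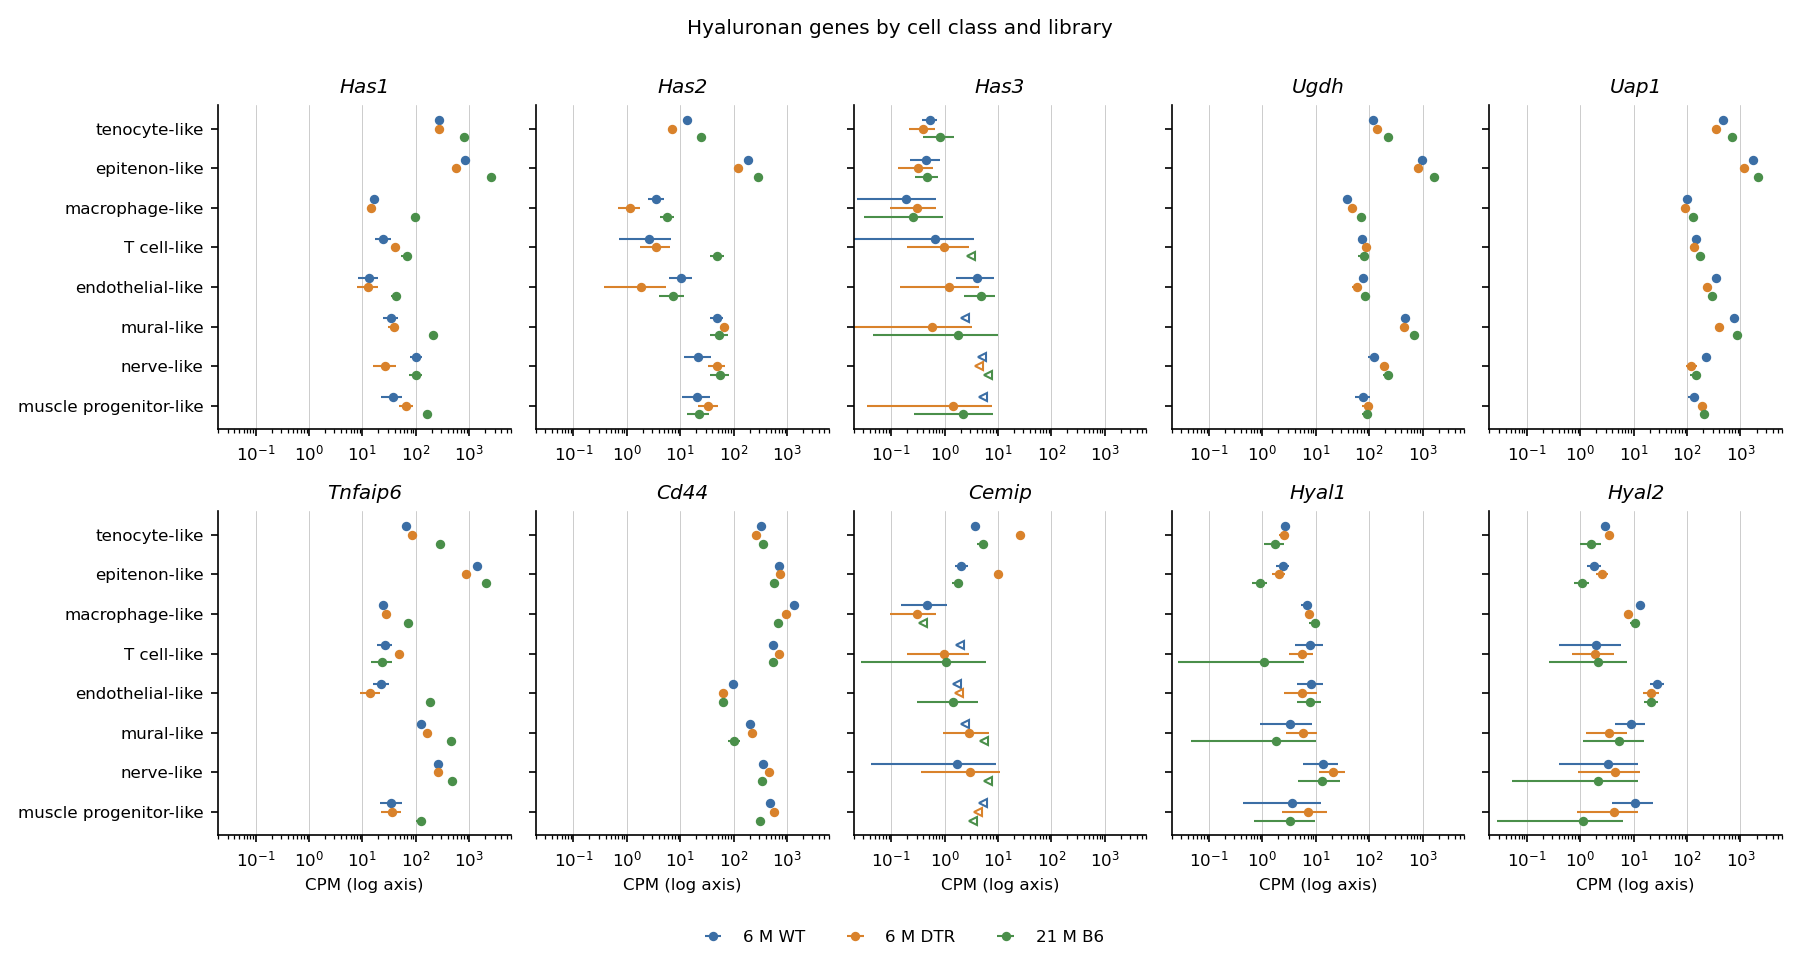
Level of each of the 10 genes (CPM, log axis) in 8 classes of each library, with 95% counting intervals and open left-pointing triangles for pools without a UMI, placed at the level of 3 counts. *Has1*, *Has2*, *Ugdh*, *Uap1* and *Tnfaip6* lie highest in epitenon-like cells, *Cd44* is highest in macrophage-like cells, and *Has3*, *Hyal1* and *Hyal2* are low throughout.

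The enzymes of the nucleotide sugar precursors were distributed like the synthases. *Ugdh* was at 974, 822 and 1612 CPM in epitenon-like cells and at 117, 142 and 224 CPM in tenocyte-like cells, a difference of 8.33, 5.80 and 7.20 times. *Uap1* was at 1717, 1159 and 2118 CPM against 470, 349 and 684 CPM, or 3.66, 3.32 and 3.10 times. Mural-like cells were the next highest named class for both, with 469, 439 and 687 CPM of *Ugdh* and 746, 402 and 874 CPM of *Uap1*. These enzymes also serve other glycosaminoglycans and protein glycosylation, and neither was restricted to one class: macrophage-like cells held 38.9, 47.8 and 70.6 CPM of *Ugdh* and 101, 91.5 and 132 CPM of *Uap1*.

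*Tnfaip6* gave the widest contrast between the tendon classes in WT. Epitenon-like cells held 1382 (1367 to 1397), 865 (853 to 876) and 2093 (2079 to 2107) CPM and tenocyte-like cells 65.9 (64.1 to 67.8), 84.1 (81.1 to 87.2) and 287 (277 to 296) CPM. The ratio between them was 21.0 in WT, 10.3 in DTR and 7.30 in B6. The gene was read from few cells: 30.3%, 29.8% and 47.5% of thinned epitenon-like cells held a UMI (48.8%, 51.9% and 68.2% before thinning), and the 10% of cells with the most *Tnfaip6* held 75.8%, 76.5% and 61.2% of its UMIs in this class, against 43.2%, 46.3% and 34.3% for *Has1*. In macrophage-like cells the share was 2.39%, 1.54% and 5.48% (11.5%, 9.39% and 30.6% before). Nerve-like cells, which hold the Schwann cell markers, were at 260, 258 and 477 CPM and mural-like cells at 123, 161 and 457 CPM.

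*Cd44* was distributed the other way, with its highest level in macrophage-like cells of all 3 libraries. It stood at 1338 (1317 to 1361), 938 (924 to 953) and 665 (647 to 684) CPM in macrophage-like cells, 710, 730 and 571 CPM in epitenon-like cells, 557, 707 and 555 CPM in T cell-like cells and 328, 267 and 348 CPM in tenocyte-like cells. The gap between macrophage-like and epitenon-like cells was narrowest in B6. Endothelial-like cells were lowest, with 99.1, 64.1 and 63.8 CPM.

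The genes of hyaluronan breakdown were low. *Hyal2*, which is anchored to the cell surface, was at 27.8, 21.6 and 21.4 CPM in endothelial-like cells and 13.1, 7.76 and 10.8 CPM in macrophage-like cells, and at most 3.45 CPM in tenocyte-like and 2.60 CPM in epitenon-like cells. *Hyal1*, the lysosomal hyaluronidase, was highest in nerve-like cells at 13.4, 21.0 and 12.8 CPM, with 6.86, 7.52 and 9.64 CPM in macrophage-like and at most 2.63 CPM in either tendon class. *Hyal1* overlaps neighbouring genes in the RefSeq annotation (GRCm38.p6), so its few reads are uncertain. *Cemip*, which binds and depolymerizes hyaluronan, had most of its UMIs in tenocyte-like cells of WT and DTR, with 82.4% and 76.4% of the total of the library against 15.5% and 21.5% in epitenon-like cells. In B6 the shares were 45.4% and 51.1%, or 64 and 72 UMIs. In tenocyte-like cells it was at 3.66 (3.24 to 4.13), 25.5 (23.9 to 27.2) and 5.16 (3.97 to 6.59) CPM. Macrophage-like cells held 5, 5 and 0 UMIs of it.

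The differences between tenocyte-like and epitenon-like cells were counted over all genes. Of the 6 members that reached the mean level, 5 (*Has1*, *Has2*, *Ugdh*, *Uap1* and *Tnfaip6*) were past 2-fold higher in epitenon-like cells in every library and none was lower, where 5.20% of 7458 genes were higher and 2.52% lower. The call of *Has1* was the least firm, since its DTR ratio of 2.06 lay close to the fold: it was lost, which left 4 members, without the upper gene limit (460 against 264 CPM in DTR), in female cells (597 against 323 CPM), with sub-clusters led by other markers left out (650 against 327 CPM) and with the mean of single cells. Sub-clusters are called led by other markers where their 10 leading genes held more markers of another class than of their own, even by 1. *Cd44* was at 2.16, 2.73 and 1.64 times and missed the fold in B6. The members and the listed pathway genes were left out of the features used for clustering. Classes and counts still came from the same cells, so these counts describe the classes and test nothing. With cells gated on the markers alone, which leaves 789, 531 and 1934 epitenon-like cells, *Has1* was at 957, 711 and 2724 CPM in epitenon-like and 279, 256 and 745 CPM in tenocyte-like cells, and *Has2* at 239, 191 and 314 against 13.2, 6.23 and 15.1 CPM. In macrophage-like against tenocyte-like cells 4 of 5 members that reached the mean level (*Has1*, *Ugdh*, *Uap1* and *Tnfaip6*) were past 2-fold lower in every library and none was higher, where 15.4% of 7585 genes were higher and 11.0% lower.

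The other genes of the pathway were counted in the same way. Of the 38 listed genes, 16 reached the mean level in the epitenon-like and tenocyte-like comparison, and 5 were past 2-fold higher in epitenon-like cells and none lower, beside the 5.20% and 2.52% of all genes. *Ugp2*, which makes UDP-glucose, was at 844, 893 and 647 CPM against 145, 162 and 169 CPM. *Gfpt2*, an isoform of the entry enzyme of the hexosamine pathway, was at 842, 655 and 1447 against 111, 128 and 309 CPM, whereas the other isoform, *Gfpt1*, was at 48.2, 49.5 and 41.2 against 41.0, 43.0 and 30.8 CPM. *Gnpnat1*, which acetylates glucosamine 6-phosphate, was at 153, 184 and 181 against 28.0, 33.1 and 32.7 CPM. The other called genes were *Ptx3*, the pentraxin that binds TSG-6, at 542, 218 and 396 against 26.8, 41.3 and 43.8 CPM, and *Itih5*, a heavy chain gene of the inter-alpha-inhibitor family, at 385, 365 and 347 against 33.2, 50.4 and 94.4 CPM. *Pgm3*, whose enzyme acts between those of *Gnpnat1* and *Uap1*, was not past the fold, at 38.8, 43.3 and 26.8 against 30.7, 29.5 and 18.9 CPM.

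Of 17 listed genes that reached the mean level in macrophage-like and tenocyte-like cells, 6 were past 2-fold higher in the macrophage-like class in every library and 3 (*Gfpt2*, *Itih5* and *Vcan*) lower, beside the 15.4% and 11.0% of all genes. *Lyve1*, a hyaluronan receptor of lymphatic vessels and tissue macrophages, was at 944, 547 and 1396 CPM against 1.69, 2.52 and 3.87 CPM. *Stab1*, a scavenger receptor, was at 128, 95.8 and 233 CPM against 1.41, 2.91 and 1.37 CPM. *Gusb*, an exoglycosidase of the lysosome, was at 92.8, 93.6 and 78.1 CPM against 13.2, 13.6 and 8.62 CPM, and *Nagk*, the kinase that salvages N-acetylglucosamine, at 26.1, 26.7 and 37.1 CPM against 9.30, 11.3 and 7.90 CPM.

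Epitenon-like cells of the libraries were then compared. In DTR against WT none of the 6 members that reached the mean level was past 2-fold in either direction, where 0.398% of 7545 genes were higher and 1.13% lower. Within the fold, *Has1* was at 0.669 (0.655 to 0.684), *Has2* at 0.644 (0.615 to 0.675), *Ugdh* at 0.844 (0.828 to 0.860), *Uap1* at 0.675 (0.665 to 0.685) and *Tnfaip6* at 0.626 (0.615 to 0.637) of the WT level, and *Cd44* at 1.03 times (1.01 to 1.05). With the marker gate, which removed more DTR than WT or B6 cells, the DTR levels moved up to 711 CPM for *Has1*, 191 CPM for *Has2*, 1105 CPM for *Ugdh* and 1163 CPM for *Tnfaip6*, against 957, 239, 1135 and 1425 CPM in WT. The tenocyte markers in this class were highest in DTR, and their part in these ratios was not tested beyond this gate. *Has3*, with 11 UMIs in WT and 8 in DTR, could not be compared. For *Tnfaip6* the ratio was not alike in all cells: it was 0.982 (0.958 to 1.01), 0.409 (0.399 to 0.420) and 1.33 (1.23 to 1.44) in sub-clusters led by *Colec10*, *Ecrg4* and *Col22a1*. At a finer clustering resolution, epitenon-like cells led by *Saa3*, *Ccl19* and *Lcn2* numbered 220 in WT and 101 in DTR. Those led by *Spp1* and *Acan* numbered 267 and 412. The part of such differences in make-up in the *Tnfaip6* ratios was not tested. *Tnfaip6* was at 1662 CPM in WT and 795 CPM in DTR among female epitenon-like cells, and at 958 and 954 CPM among male ones, where cells were sorted by their X- and Y-linked transcripts. *Has1* was at 886 and 597 CPM in female and 754 and 553 CPM in male cells. Female cells numbered 938 in WT and 595 in DTR and male cells 465 and 867, so the sexes also had different weights in the 2 libraries. The median of all genes was -0.01 on the log2 scale and that of the members that reached the mean level -0.57.

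In 21 M B6 epitenon-like cells *Has1* was past 2-fold higher than in both younger libraries. It was 3.14 times (3.09 to 3.19) the WT level and was the only 1 of 6 members past 2-fold in B6 against WT, where 1.37% of genes were higher and 1.79% lower. *Has2* was at 1.51 times (1.46 to 1.56), *Ugdh* at 1.65 (1.63 to 1.68), *Uap1* at 1.23 (1.22 to 1.25) and *Tnfaip6* at 1.51, and *Cd44* was at 0.805 (0.789 to 0.821), none of them past the fold. *Has3* stayed at 0.456 CPM in WT and 0.473 CPM in B6, too low to be called. Against DTR, which shared the digestion time, *Has1* was 4.69 times (4.61 to 4.77), *Has2* 2.34 times (2.25 to 2.43) and *Tnfaip6* 2.42 times (2.38 to 2.46) as high. These were 3 of 6 members past 2-fold higher, and none was lower, where 2.98% of genes were higher and 2.50% lower. *Ugdh* at 1.96 and *Uap1* at 1.83 times lay just under the fold. With the marker gate *Has1* was 3.83 times as high in B6 as in DTR, and *Has2* at 1.64 and *Tnfaip6* at 1.70 times fell under the fold. The median of all genes was -0.27 on the log2 scale in both B6 comparisons, and those of the members 0.60 against WT and 1.10 against DTR. The comparisons of DTR and B6 with WT share the WT library and are not independent.

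Genes of dissociation and inflammation were measured beside this. The median of 13 immediate early genes in epitenon-like cells was 0.12 on the log2 scale in DTR against WT, 0.75 in B6 against WT and 0.51 in B6 against DTR, and 2 of them were past 2-fold higher in each B6 comparison, where 1.37% and 2.98% of all genes were. The median of 11 inflammatory genes was -0.42, 0.01 and 0.32. Of these, 3 were lower in DTR against WT, where 1.13% of all genes were. In B6 1 was higher and 1 lower against WT, and 2 were higher against DTR. In tenocyte-like cells the immediate early median was 0.47, 0.91 and 0.11 in the same comparisons, with 5 of 13 genes past 2-fold higher in B6 against WT, where 3.05% of all genes were, and none in the other 2. The median of 10 inflammatory genes there was -0.37, -0.14 and 0.35. The immediate early shift was thus largest in tenocyte-like cells of B6 against WT. In macrophage-like cells the immediate early median was 0.32, -0.56 and -0.57, with 5 of 13 genes past 2-fold lower in B6 against DTR. The median of 11 inflammatory genes there was -0.57, -1.04 and -0.42, with 2, 7 and 3 of them lower and 1 higher in B6 against DTR. Of all genes 1.36%, 3.04% and 2.20% were lower in these comparisons, and 2.71% higher in the last. The part of these genes in the differences of the members was not tested.

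**Figure D2:**
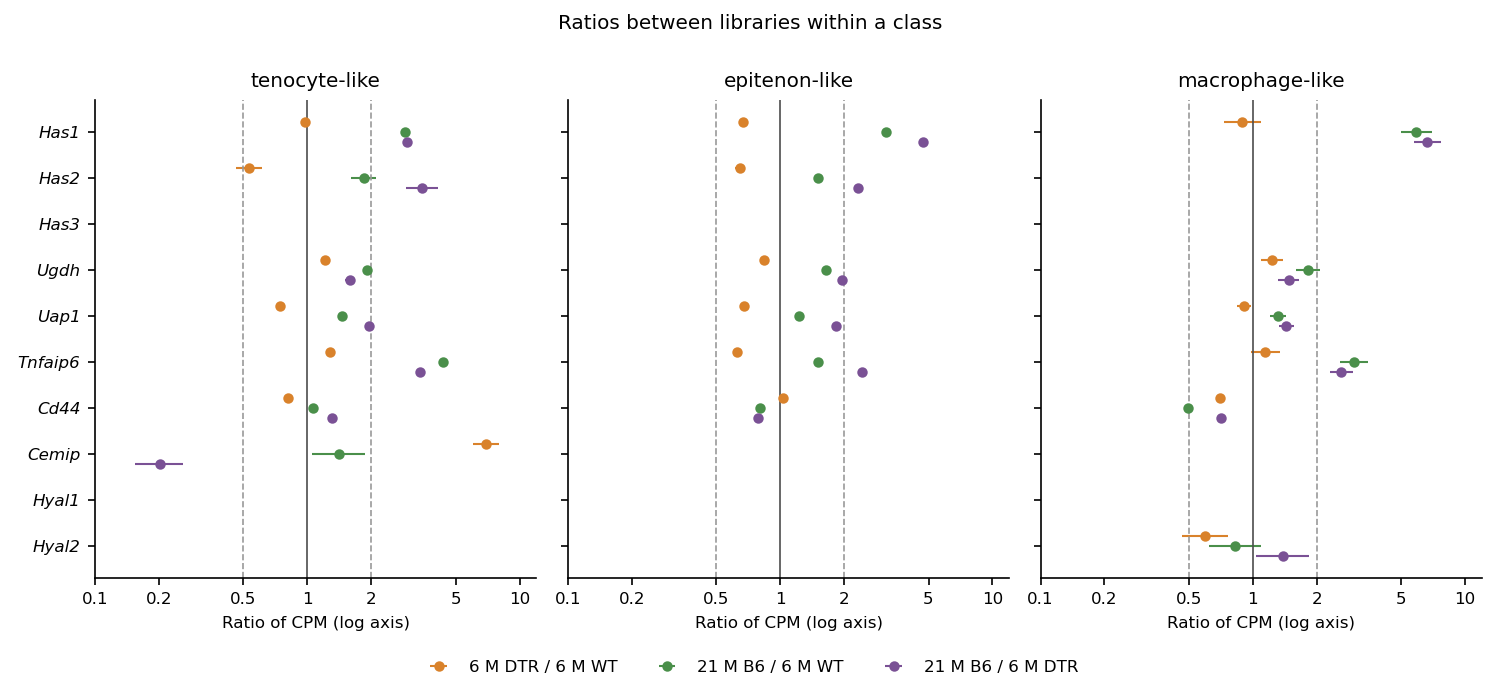
Ratio between libraries (log axis) of each member with a mean of at least 10 CPM in tenocyte-like, epitenon-like and macrophage-like cells, with 95% counting intervals and lines at 2-fold. *Has1* is past 2-fold higher in B6 than in WT and DTR in tenocyte-like and epitenon-like cells and, from levels as low as those of epitenon markers, in macrophage-like cells, and *Cemip* is 6.96 times as high in DTR as in WT tenocyte-like cells. *Cemip* reached the mean of 10 CPM in tenocyte-like cells only through its DTR level.

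In tenocyte-like cells the member that differed between DTR and WT was *Cemip*. It was 6.96 times (6.06 to 8.01) as high in DTR, from 901 UMIs against 266, and was found in 4.14% of thinned DTR cells against 0.739% of WT and 1.25% of B6 cells (16.7%, 3.79% and 4.32% before thinning). Of macrophage-like cells 0.149% of WT and 0.0854% of DTR cells held a thinned UMI, and 0 of 529 B6 cells. *Cemip* was 1 of 7 members past 2-fold higher and none was lower, where 1.78% of 7190 genes were higher and 1.36% lower. *Cemip* reached the mean of 10 CPM only through its DTR level, so this count is not read against the share of all genes. *Has2* was at 0.532 (0.461 to 0.612) of the WT level, just inside the fold, and *Has1*, *Ugdh*, *Uap1*, *Cd44* and *Tnfaip6* lay between 0.742 and 1.28 times. The *Cemip* difference held in both sexes, with 3.21 and 18.5 CPM in female and 4.56 and 30.9 CPM in male WT and DTR cells. With the sub-clusters led by other markers left out, the levels were 3.13 and 16.7 CPM, in 4249 WT and 1683 DTR cells. A sub-cluster of 722 cells, led by *Mstn* and *Igfbp3*, was left out for the muscle progenitor marker *Chodl* alone. Another of 1711 cells, led by *Cyp26a1*, was left out for 2 haemoglobin markers. Such markers do not show these to be cells of another class.

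In B6 tenocyte-like cells *Tnfaip6* was 4.35 times (4.17 to 4.55) and *Has1* 2.87 times (2.80 to 2.94) the WT level, and *Has2* at 1.84 and *Ugdh* at 1.91 times lay under the fold. These were 2 of 7 members higher and none lower, where 3.05% of genes were higher and 1.72% lower. Against DTR, *Has2* was 3.46 times (2.92 to 4.11), *Tnfaip6* 3.41 times (3.25 to 3.58) and *Has1* 2.95 times (2.87 to 3.03) as high and *Cemip* was 4.94 times lower, which made 3 higher and 1 lower of 7, where 3.24% of genes were higher and 3.77% lower. The *Cemip* call again rested on a mean level reached only through DTR. The *Tnfaip6* difference depended on where the border with the epitenon-like class was drawn: it was 1.82 times against WT and 1.17 times against DTR where the libraries were clustered without integration. The summed level of 8 epitenon markers in tenocyte-like cells was 1130, 909 and 1254 CPM, against 3508, 3326 and 3898 CPM in epitenon-like cells. As shares of the epitenon-like level, *Has1*, *Has2* and *Tnfaip6* lay within the range of these markers in each library and above the marker medians. The range was far wider here than in macrophage-like cells, so lying within it cannot decide the source of these UMIs. The part of epitenon RNA in the ratios of this class was not tested. *Has1* stayed past 2-fold under each alternative that gave a value, between 2.46 and 3.60 times the WT level.

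Macrophage-like cells of B6 held 5.89 times (5.00 to 6.98) the WT level of *Has1*, 2.99 times (2.57 to 3.48) that of *Tnfaip6* and 0.497 (0.481 to 0.513) that of *Cd44*. These 2 members higher and 1 lower of 6 stood where 1.96% of 7193 genes were higher and 3.04% lower. Against DTR, *Has1* was 6.62 times (5.72 to 7.67) and *Tnfaip6* 2.61 times (2.31 to 2.96) as high and none of the 6 was lower, where 2.71% of genes were higher and 2.20% lower. In DTR against WT none of the 6 was past 2-fold, with *Cd44* at 0.701 (0.685 to 0.717) and *Hyal2* at 0.595 (0.464 to 0.761), where 0.403% of genes were higher and 1.36% lower. *Cd44* UMIs were found in 78.8%, 72.8% and 61.1% of thinned macrophage-like cells (97.6%, 95.9% and 94.5% before), the same order of the libraries as for its level.

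The low levels of the synthases in macrophage-like cells were set beside those of the epitenon markers, which these cells should lack. The 8 epitenon markers stood in macrophage-like cells at a median of 1.64%, 1.56% and 1.87% of their epitenon-like level, with ranges of 0.714% to 3.89%, 0.532% to 3.60% and 0.821% to 4.84%. *Has1* was at 1.99%, 2.65% and 3.74%, *Has2* at 1.90%, 0.935% and 1.99% and *Tnfaip6* at 1.75%, 3.19% and 3.45% of theirs. All 3 genes lay within the range of the markers in each library, so that no difference in expression by macrophages is read from the B6 ratios of this class. Whether these UMIs came from free RNA, from doublets or from the macrophages was not tested. *Uap1*, at 5.87%, 7.89% and 6.23%, was above the range in every library, and *Ugdh*, at 3.99%, 5.81% and 4.38%, was above it in WT and DTR. Of the macrophage-like cells, 37, 34 and 18 formed a sub-cluster led by the tendon genes *Angptl7*, *Dcn* and *Fmod*, with 103, 130 and 1594 CPM of *Has1*. With all sub-clusters led by other markers left out, *Has1* in macrophage-like cells was at 9.90, 10.2 and 38.5 CPM and *Tnfaip6* at 8.84, 9.14 and 25.6 CPM. *Cd44* at 1340, 952 and 631 CPM moved little.

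**Figure D3:**
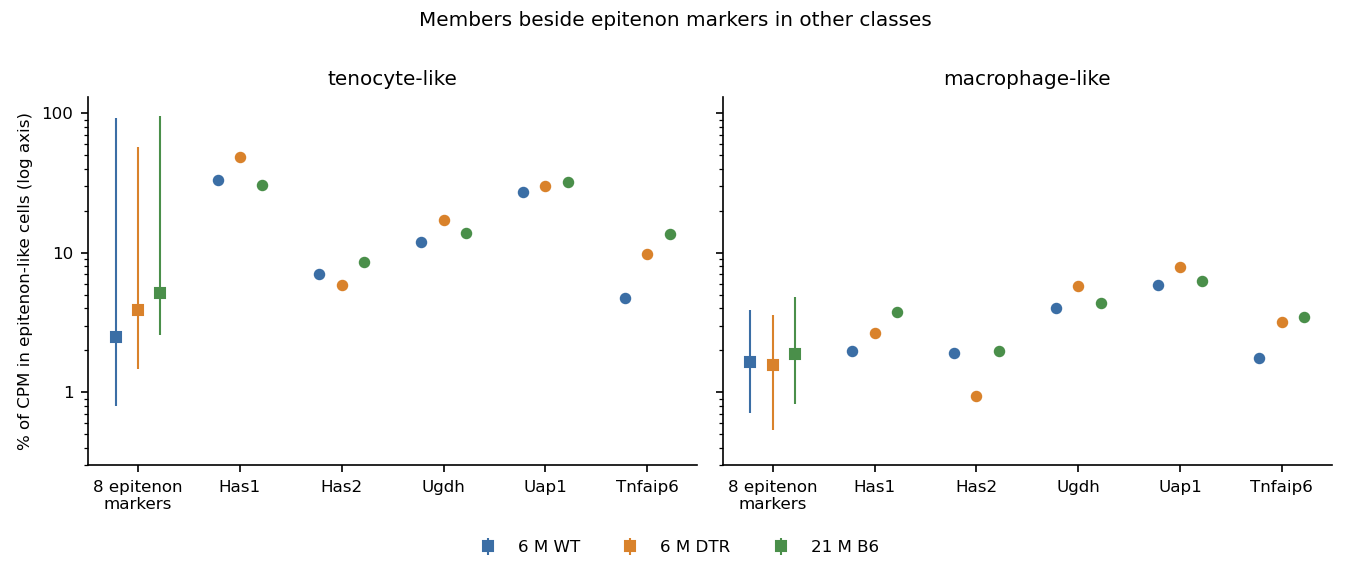
Level of *Has1*, *Has2*, *Ugdh*, *Uap1* and *Tnfaip6* in tenocyte-like and macrophage-like cells, each as a percentage of its epitenon-like level in the same library (log axis). The 8 epitenon markers stand beside them, with their median as a square and their range as a bar. *Has1*, *Has2* and *Tnfaip6* lie within the range of the markers in macrophage-like cells, and *Has1* in tenocyte-like cells, at 33.4%, 48.5% and 30.5%, lies above the marker medians of 2.48%, 3.89% and 5.14% but within the marker ranges, which reach 91.8%, 57.3% and 95.2% there.

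Epitenon-like cells were not uniform for these genes. At a low clustering resolution they fell into 3 sub-clusters, the first led by *Colec10*, *Pou2f2* and *Dpp4* (950, 1025 and 1701 cells), the second by *Ecrg4*, *Spp1* and *Igfbp3* (557, 516 and 850 cells) and the third by *Col22a1* and *Clic5* (136, 216 and 172 cells). *Has1* was at 855, 557 and 2704 CPM in the first, 711, 412 and 2795 CPM in the second and 1135, 925 and 1181 CPM in the third. The higher B6 level was therefore seen in the first and second sub-clusters, at 3.16 (3.10 to 3.22) and 3.93 (3.82 to 4.05) times the WT level, and not in the third, at 1.04 (0.986 to 1.10). *Has2* was at 221, 152 and 340 CPM, at 160, 80.2 and 223 CPM and at 36.9, 32.1 and 37.7 CPM, respectively. The *Col22a1* sub-cluster thus held *Has1* in all libraries with little *Has2*, and the B6 levels of both were close to those of WT.

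*Tnfaip6* had a different distribution. The *Ecrg4* sub-cluster held the most, at 2876, 1178 and 3750 CPM, against 791, 777 and 1559 CPM in the *Colec10* and 479, 637 and 211 CPM in the *Col22a1* sub-cluster. Its B6 level was 1.97 times the WT level in the *Colec10* sub-cluster, 1.30 times in the *Ecrg4* and 0.441 in the *Col22a1* sub-cluster. *Ugdh* was at 1082, 987 and 1772 CPM in the *Colec10*, 774, 443 and 1446 CPM in the *Ecrg4* and 869, 741 and 883 CPM in the *Col22a1* sub-cluster. *Uap1* was, in the same order, at 1904, 1366 and 2229, 1509, 775 and 2172, and 1014, 829 and 945 CPM. The 3 sub-clusters were defined on the same cells, so these are descriptions.

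*Cemip* was found mostly in the *Ecrg4* sub-cluster, at 5.48, 33.7 and 5.25 CPM, with 0.530, 1.60 and 0.234 CPM in the *Colec10* sub-cluster. Over all epitenon-like cells it was at 2.07, 9.99 and 1.79 CPM, 4.82 times (3.55 to 6.66) as high in DTR as in WT. At a finer resolution 267, 412 and 384 of the epitenon-like cells formed a sub-cluster led by *Spp1* and *Acan*, with the tenocyte markers *Chad*, *Fibin* and *Cilp2* among its leading genes. With the sub-clusters led by other markers left out, *Cemip* in epitenon-like cells was at 1.26, 3.12 and 1.90 CPM, and with the marker gate at 1.15, 0.456 and 0.431 CPM. The higher DTR value of the epitenon-like class was therefore not seen once cells were gated on the markers. Only 531 DTR cells remained there, with *Cemip* under 1 CPM, so such low levels cannot exclude a difference. In the *Colec10* sub-cluster the DTR level was 3.02 times (1.33 to 7.71) that of WT.

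**Figure D4:**
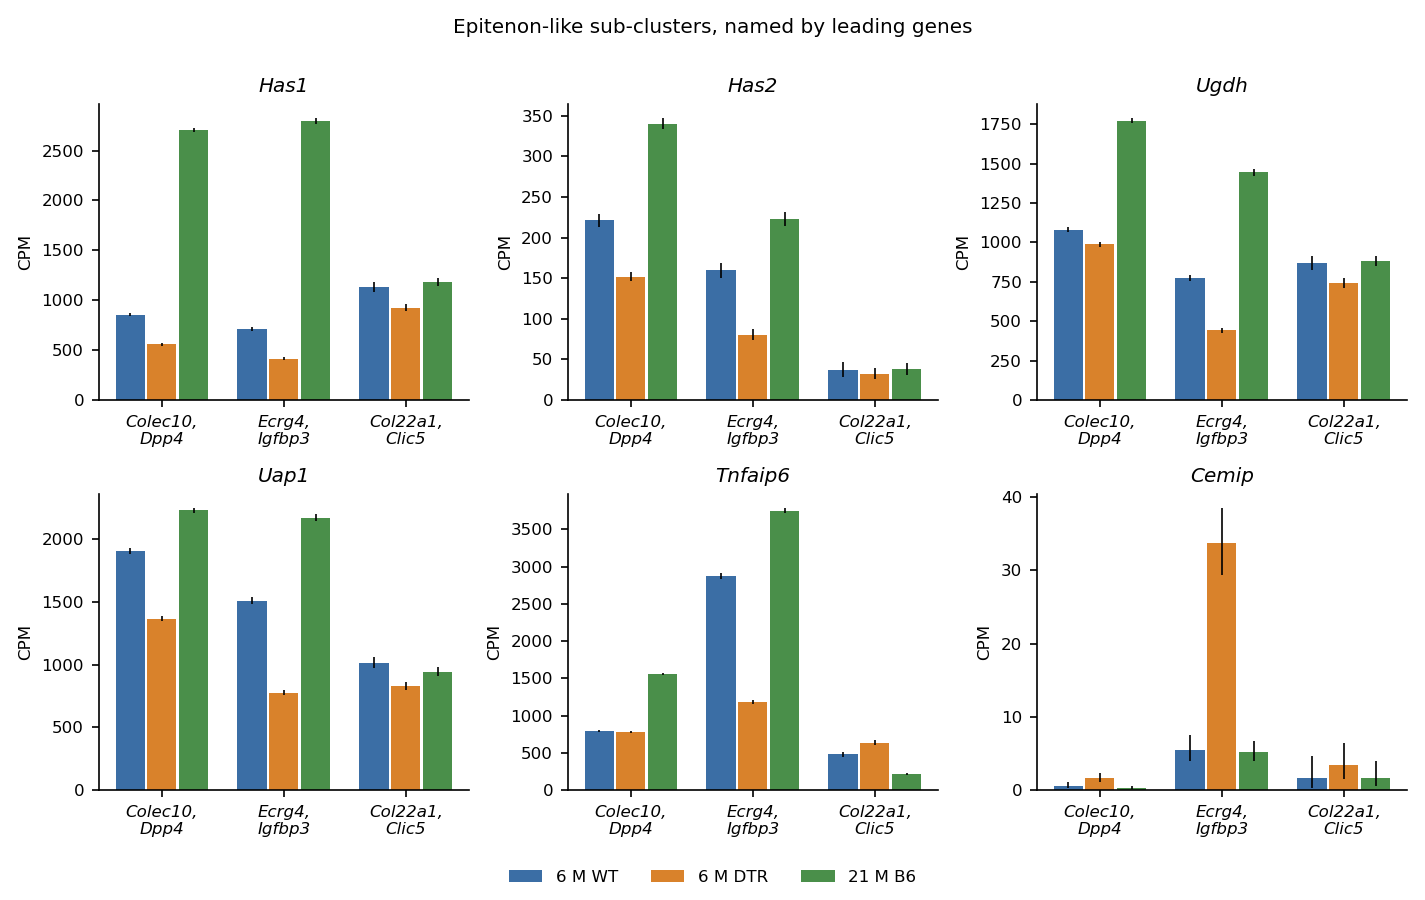
Level (CPM, linear axis) of *Has1*, *Has2*, *Ugdh*, *Uap1*, *Tnfaip6* and *Cemip* in the 3 epitenon-like sub-clusters of each library, as bars with 95% counting intervals. *Has1* is higher in B6 than in WT in the *Colec10* and *Ecrg4* sub-clusters and at 1135 and 1181 CPM in WT and B6 of the *Col22a1* sub-cluster.

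Tenocyte-like cells divided into a sub-cluster led by *Mstn*, *Kera* and *Tnmd*, one led by *Slurp1*, *Serpinb7* and *Vcan*, and 36 cells led by muscle fibre genes. *Has1* was at 160, 200 and 530 CPM in the first and 411, 364 and 1320 CPM in the second. The B6 level was 3.32 and 3.21 times the WT level in these, so the difference was of like size in both. *Tnfaip6* and *Cemip* were on the other side: the *Mstn* sub-cluster held 102, 127 and 407 CPM of *Tnfaip6* and 4.74, 34.4 and 7.05 CPM of *Cemip*, and the *Slurp1* sub-cluster 25.4, 26.4 and 62.1 CPM and 2.46, 14.0 and 1.65 CPM.

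Within the epitenon-like class, cells with a thinned *Has1* UMI were compared with those without, at the same depth in all cells. There were 880 with and 757 without in WT, 751 and 1003 in DTR and 2173 and 550 in B6. *Tnfaip6* was at 1943 and 497 CPM in WT, 1286 and 442 CPM in DTR and 2429 and 300 CPM in B6, or 3.91 (3.61 to 4.23), 2.91 (2.69 to 3.16) and 8.10 (7.25 to 9.06) times as high with a *Has1* UMI. *Tnfaip6* was thus higher in *Has1* cells of all 3 libraries. The ratio was largest in B6, where cells without a *Has1* UMI were the smallest part, so its size is not comparable between libraries. *Acan*, a leading gene of a sub-cluster with tenocyte markers, was at 0.860 (0.115 to 6.42) in WT and 0.360 (0.184 to 0.658) in DTR. How far the split separates such cells was not tested, and the ratios of all genes were not computed. *Has2* was higher in cells with *Has1* by 1.82 (1.52 to 2.18), 2.51 and 3.11 (2.58 to 3.78) times. *Ugdh* differed by 1.88, 1.77 and 2.45 times, *Uap1* by 1.68, 1.60 and 2.36, *Cd44* by 1.33, 1.55 and 1.69 and, of the listed genes, *Gfpt2* by 1.69, 2.14 and 2.56 and *Ptx3* by 3.23 times in WT and 2.49 times in DTR. In B6 *Ptx3* was at 420 CPM with *Has1* and 60.0 CPM without (a ratio between 5.47 and 9.09). The other listed genes called higher in epitenon-like cells did not follow in every library. *Ugp2* differed by 1.02, 1.31 and 0.939 times and *Gnpnat1* by 1.23, 1.33 and 0.962. *Itih5* was at 0.813 (0.729 to 0.906), 1.08 (0.965 to 1.21) and 0.740 (0.664 to 0.825). Cells of 1 library are not replicates, thinning was 1 random draw, and the intervals count molecules only. The sizes depended on the depth: thinned to 5000 UMIs, *Tnfaip6* was at 4.23, 3.35 and 21.3 times. For *Cemip* the intervals included 1 in every library at 2000 UMIs, and at 5000 UMIs it was lower with *Has1* in DTR, at 0.373 (0.244 to 0.564).

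**Figure D5:**
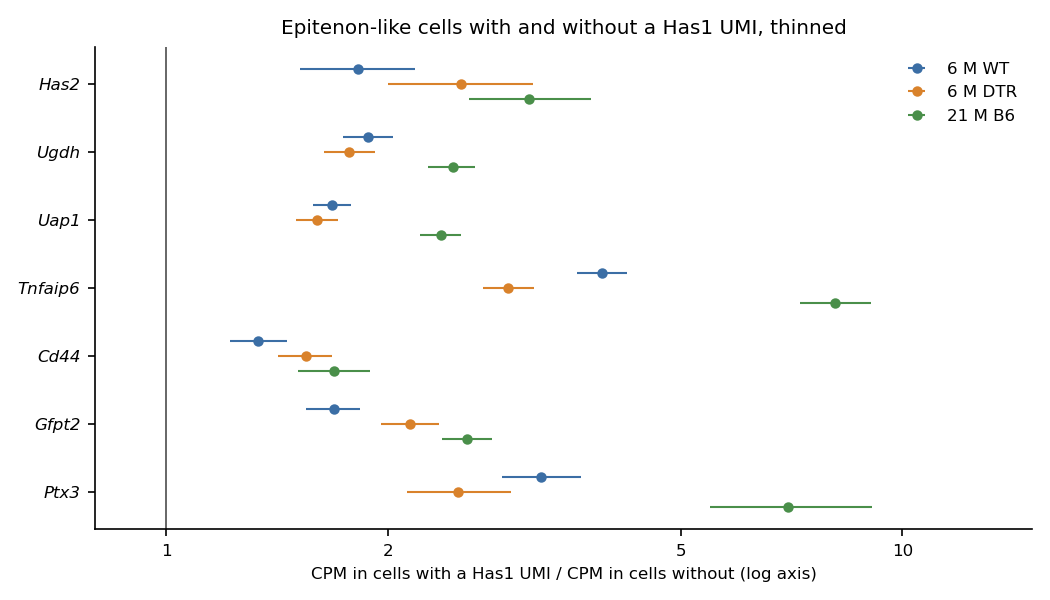
Ratio of the level (log axis) of *Has2*, *Ugdh*, *Uap1*, *Tnfaip6*, *Cd44*, *Gfpt2* and *Ptx3* in epitenon-like cells with a *Has1* UMI over those without, after thinning to 2000 UMIs, for each library with 95% counting intervals. Listed genes that did not follow *Has1* are not drawn. *Tnfaip6* has ratios of 3.91, 2.91 and 8.10 in WT, DTR and B6.

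Because the classes made up different shares of the libraries, the source of each transcript also differed. Epitenon-like cells gave 80.2%, 86.6% and 95.4% of all *Has2* UMIs, 85.8%, 84.1% and 93.8% of *Tnfaip6*, 70.3%, 74.1% and 93.5% of *Ugdh*, 52.5%, 65.1% and 88.1% of *Uap1* and 30.0%, 39.2% and 68.1% of *Cd44*. For *Has1* they gave 49.4% in WT and 58.0% in DTR, where tenocyte-like cells gave 49.6% and 39.1%, and in B6 tenocyte-like cells gave 8.48% and epitenon-like cells nearly all the rest. Over all cells of a library *Has1* was at 359, 285 and 1778 CPM, *Has2* at 49.9, 41.5 and 182 CPM and *Tnfaip6* at 342, 304 and 1364 CPM. The *Has1* total of B6 was thus further above that of WT than the level of either tendon class was, and in such a total more epitenon-like cells and more RNA per cell cannot be told apart. Shares of cells after digestion need not be those of the tissue.

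Other pathway genes also differed between libraries. In tenocyte-like cells of B6, *Gfpt2* was 2.77 times and *Itih5* 2.84 times the WT level, while *Vcan*, a large proteoglycan that binds hyaluronan, was at 0.299 of the WT level and *Acan*, its counterpart of cartilage and compressed tendon, was 25.8 times lower, with 10.4 CPM in WT and 0.403 CPM, or 5 UMIs, in B6. In DTR tenocyte-like cells *Acan* was 2.23 times the WT level, at 23.2 CPM. *Acan* reached the mean of 10 CPM in tenocyte-like cells only through this DTR level, so its place among the genes past 2-fold rests on that library. *Ptx3* in DTR epitenon-like cells was at 0.403 of the WT level, and in macrophage-like cells of B6 *Lyve1* was 2.55 and *Stab1* 2.43 times the DTR level. *Gfpt2* was 2.41 times as high in B6 as in DTR tenocyte-like cells and 2.21 times in epitenon-like cells. Its ratio of 2.82 in macrophage-like cells came from 14.8 and 41.8 CPM, against 655 and 1447 CPM in epitenon-like cells, and as for *Has1* no difference in expression by macrophages is read from it. In each comparison between libraries of a main class, at most 4 of the 16 listed genes that reached the mean level were past 2-fold, where between 0.398% and 3.24% of all genes were higher and between 1.13% and 3.77% lower.

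Likeness of pattern was taken over 27 pools of class and library and 10041 genes, as Pearson's r of log2 CPM, and serves as a description because pools of a library share depth and free RNA. The gene most like *Has1* was *Gfpt2* at 0.94, followed by *Adgrd1* and *Lrrn4cl* at 0.91. *Ugdh* was the most like both *Has2*, at 0.87, and *Tnfaip6*, at 0.88. *Cemip* was most like *Fbln7*, *Itga11* and *Dhrs7*, all at 0.85, and *Cd44* most like *Antxr2* at 0.87. *Has1* and *Has2* had an r of 0.70 with each other.

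The regions upstream of 3 members whose levels differed most between libraries are shown for reference. They are the 250 bases before the transcript start in RefSeq (GRCm38.p6), 5′ to 3′ on the strand of the gene, with matches to any searched motif in capitals: *Has1* at chr17:17855189-17855438 on the minus strand, *Tnfaip6* at chr2:52037863-52038112 on the plus strand and *Cemip* at chr7:84086506-84086755 on the minus strand.
Has1: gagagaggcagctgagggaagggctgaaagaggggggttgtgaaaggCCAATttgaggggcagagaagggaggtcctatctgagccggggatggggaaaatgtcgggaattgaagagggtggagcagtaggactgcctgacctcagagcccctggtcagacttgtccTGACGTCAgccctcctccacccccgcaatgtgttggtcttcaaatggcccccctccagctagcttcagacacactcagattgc
Tnfaip6: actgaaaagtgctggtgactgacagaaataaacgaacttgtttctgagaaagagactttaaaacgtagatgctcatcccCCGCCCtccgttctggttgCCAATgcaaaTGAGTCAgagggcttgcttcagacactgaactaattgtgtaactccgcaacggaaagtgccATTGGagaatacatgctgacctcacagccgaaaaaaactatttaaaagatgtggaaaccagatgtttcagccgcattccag
Cemip: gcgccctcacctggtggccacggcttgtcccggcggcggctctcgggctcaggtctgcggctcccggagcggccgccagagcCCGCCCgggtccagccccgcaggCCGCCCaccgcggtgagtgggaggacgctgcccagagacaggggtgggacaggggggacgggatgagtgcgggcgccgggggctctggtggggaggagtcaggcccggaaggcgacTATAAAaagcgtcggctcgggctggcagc

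The motifs searched on both strands were the CRE (TGACGTCA), the AP-1 site (TGAGTCA), the TATA box (TATAAA), the GC box (GGGCGG) and the CCAAT box (CCAAT). The *Has1* region holds a CRE starting 83 bases before the start and a CCAAT box at 203 bases. That of *Tnfaip6* holds an AP-1 match at 142 bases, CCAAT boxes at 152 and 81 bases and a GC box at 171 bases, and that of *Cemip* a TATA box at 29 bases and GC boxes at 168 and 145 bases. Of all 32851 promoters of the table, 1.55% held the CRE, 4.46% the AP-1 site, 12.4% the TATA box, 32.7% the GC box and 33.8% the CCAAT box. Of the 8 members with an entry, 1 held the CRE, 1 the AP-1 site, 1 the TATA box, 6 the GC box and 4 the CCAAT box. *Has2* and *Has3* had no entry. A match is a description of the letters only.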

How the data were processed

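The authors prepared 1 library per group with a Chromium Single Cell 3′ kit (version 3) and deposited, for each, the gene by barcode matrix of UMI counts, which are raw counts. Per the file headers the matrices were written by Cell Ranger 6.0.1, whereas the submitters' processing notes name Cell Ranger 2.1.1. The genome build used is not given in the sources used here. The study's limits on cells were applied again: a cell needed 1000 or more and no more than 5000 detected genes, and mitochondrial UMIs of 10% or less. Libraries were integrated and clustered with Seurat 5.3.0 in R 4.3.3, and clusters were named from marker lists. At least 3 markers of a class had to be raised 2-fold or more and detected in 10% of cells or more. That class also had to hold more of the 10 leading genes of the cluster than any other class. The members and the listed pathway genes were left out of the features used for clustering. A mixed cluster of vessel cells was clustered again. Doublets were not removed, because the Scrublet caller in Scanpy 1.11.5 marked 2, 7 and 1 cells and did not work on these data.

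Counts were summed per class and library and divided by the total of the pool (CPM). Ratios have exact binomial intervals and levels exact Poisson intervals at 95%, which cover counting error only. Between libraries or classes a gene was called where its mean was at least 10 CPM and its ratio at least 2 or at most 0.5. Between classes the fold had to be passed in all 3 libraries. A count of 0 was placed at 3 counts. With 1 library per group no test and no p-value was computed. Thinning was a single random draw, drawn anew once after its first values had been seen, with no regard to them. The calls were tested on simulated data of B6 against WT with 200 genes raised or lowered 3-fold: 187 were called in tenocyte-like (7155 genes run), 193 in epitenon-like (7479) and 195 in macrophage-like cells (7197), with 0 unchanged genes called. The others had left the mean level and were not tested. The simulated counts held counting error only, with no spread between mice, preparations or cells. They therefore do not show how often these data give false calls. The pass mark first set was missed in tenocyte-like cells and was then restated over the genes still tested.

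The genes named were the 10 members, listed pathway genes past the fold (1 of them is not reported here) and, for likeness, the 3 genes with the highest correlation. The members, marker lists and pathway list were chosen with earlier results of these data known. Promoters came from RefSeq tables (GRCm38.p6).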

Additional observations from a re-analysis of the deposited data

How the results depend on the processing

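No paired analysis was possible because each group held 1 library. Of 142 recomputed counts of members past 2-fold, 117 stayed within 1.5 times the reported count and 25 did not, and of 208 recomputed values of the 16 called ratios 196 stayed past 2-fold. A minimum of 1 CPM changes no ratio, and leaving out the Scrublet calls removed 2, 7 and 1 cells. Neither setting could move these ratios by much. For a count that moved, the cause was not tested unless the setting itself shows it. The share of all genes past 2-fold was not recomputed under these settings. A count that rose or fell is therefore not read as particular to the members.

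In tenocyte-like cells the count for DTR against WT was 1 and became 2 with the marker gate, in male cells, with TMM scaling, with the mean of single cells and without the highest doublet scores, in each case with *Has2*, lower in DTR, beside *Cemip*. It was 0 in female cells and without sub-clusters led by other markers, where the mean of *Cemip* was under 10 CPM. For B6 against WT the count of 2 became 1 without integration and 4 in female cells and with TMM scaling.

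In epitenon-like cells DTR against WT gave 1 in female cells (*Tnfaip6*, lower) and with a minimum of 1 CPM (*Cemip*). B6 against WT gave 2 in male cells (*Tnfaip6* joining *Has1*), with TMM scaling (*Ugdh*) and with a minimum of 1 CPM (*Hyal1*, lower). B6 against DTR gave 1 with the marker gate (*Has1*), 5 with TMM scaling and 6 with a minimum of 1 CPM. In macrophage-like cells DTR against WT gave 1 in female cells, in male cells and with a minimum of 1 CPM, B6 against WT 1 without the upper gene limit and B6 against DTR 1 in male cells (*Has1*). Macrophage-like against tenocyte-like cells gave 2 without the upper gene limit and 8 with a minimum of 1 CPM. The ratio of *Tnfaip6* in macrophage-like cells of B6 over DTR reversed in male cells, at 0.852.

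*Has1* stayed past 2-fold higher in B6 in tenocyte-like and epitenon-like cells in both comparisons under each setting that gave a value. Its ratios in macrophage-like cells did so too. In macrophage-like cells these ratios came from levels within the range of the epitenon markers. In tenocyte-like cells the *Has1* levels lay within a much wider range of these markers and above the marker medians. Epitenon-like over tenocyte-like cells gave 4 members, without *Has1*, in female cells, without the upper gene limit, with the mean of single cells and without sub-clusters led by other markers. In macrophage-like cells *Cd44* at B6 over WT ranged from 0.455 to 0.537. A resolution of 0.3 named no epitenon-like cluster, and a mitochondrial window of 1% to 3% left 31 tenocyte-like and 21 macrophage-like B6 cells, so these gave no value there. Leaving out the 5% of cells with the highest doublet scores, leaving out sub-clusters led by other markers and the 1% to 3% window were chosen after seeing the data. TMM factors were 1.076, 1.076 and 0.8635 for epitenon-like and 1.023, 1.097 and 0.8914 for tenocyte-like cells of WT, DTR and B6, which raises each B6 ratio. Depth limits *Has3*, *Hyal1* and *Hyal2* most, which were under 10 CPM in both tendon classes.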
